A study of Mus musculus with 48 samples.

Results

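Single mouse embryos at the 2-cell stage were ranked by how much mRNA of 5 oocyte genes their libraries held, and the 8 embryos with the highest score were set against the 8 with the lowest. Of 48 libraries, 24 had at least 1000000 counts and at least 12000 genes above 0, and only these were ranked. The score of an embryo is the mean of log2(CPM + 1) over Gdf9, Bmp15, Zp1, Zp2 and Zp3, where CPM is counts per 1000000 counts of the library. The embryos carry 1 of 2 labels. The K49A group (14 of the ranked embryos) takes its name from a change of 1 residue of protamine 1, which compacts DNA in the sperm head. The WT group (10 of the ranked embryos) serves as its control. All embryos are labelled C57BL6 and were collected 26 to 28 hours after fertilization. Neither the parent that carried the change nor the litter of an embryo is given in the labels. Each embryo was sequenced alone with Smart-seq2, which primes on poly(A) tails, so a p-value here measures the spread between single embryos.

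A growing mouse oocyte stores mRNA that the embryo uses before its own genome is active. In the course of meiotic maturation and the first divisions most of this mRNA loses its poly(A) tail and is degraded, while the embryonic genome is switched on in the main at the 2-cell stage. The genes of the score are transcribed in the growing oocyte: Gdf9 and Bmp15 encode growth factors that act on the surrounding granulosa cells, and Zp1, Zp2 and Zp3 encode the glycoproteins of the zona pellucida, the coat around the egg. Their mRNA in a 2-cell embryo is therefore mostly what the oocyte left behind. In a library of a whole embryo, less of a stored mRNA and more of all other RNA cannot be told apart.

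The 3′ ends of the 5 mRNAs are shown because a library primed on poly(A) tails counts an mRNA only while it keeps a tail. Each line gives 30 bases of the GENCODE M21 transcript (GRCm38), 5′ to 3′ on the transcript strand, with the poly(A) signal AATAAA and, in Gdf9, the cytoplasmic polyadenylation element TTTTAT in capitals.
Gdf9: ggTTTTATgtgacggaagAATAAActgttg
Bmp15: attttcttaatcttaaagAATAAAttttca
Zp1: cagatattaaatggactcAATAAAccattg
Zp2: tcactgattggacttgcaAATAAAgagact
Zp3: accttgtatcccttccgcAATAAAagaaga
The signal AATAAA was found once in the last 100 bases of each of the 5, as in 66.5% of 11041 tested genes with a coding transcript. The letters TTTTAT, which bind the protein CPEB and govern tail length in the oocyte, were found in Gdf9 alone of the 5 and in 14.8% of the tested genes. A match of letters is a description and not a site in use. The 1639 tested genes with TTTTAT had a median log2 fold change, highest over lowest score, of 0.0022, against 0.022 in the 9402 without.

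Embryos were chosen by their values of these 5 genes, which are therefore given as a description, with no test. Scores ran from 7.28 to 7.83 in the 8 highest and from 6.08 to 6.82 in the 8 lowest. At the upper border, K49A replicate 12 was inside with 7.2778 and K49A replicate 9 outside with 7.2697. At the lower border, WT replicate 21 was inside with 6.8208 and WT replicate 12 outside with 6.8591. The ranking is thus a gradient with no gap at either border. Gdf9 (chromosome 11, 53431023 to 53437904, plus strand) had 393 to 1203 CPM (median 933) in the highest-score embryos and 122 to 625.01 CPM (median 384) in the lowest-score embryos. Bmp15 (chromosome X, 6314107 to 6320721, minus strand) had 434 to 1294 CPM (median 708) in the highest-score and 104 to 1129 CPM (median 388) in the lowest-score embryos. Both growth factor mRNAs overlapped between the sets, and the highest Bmp15 value of all 24 embryos, 1384 CPM, was in a middle embryo. Zp1 (chromosome 19, 10914287 to 10920632, minus strand) was the only gene of the score whose sets did not overlap, with 62.5 to 139 CPM (median 93.6) in the highest-score and 12.5 to 56.7 CPM (median 33.1) in the lowest-score embryos. Zp2 (chromosome 7, 120126772 to 120145291, minus strand) had 35.1 to 155 CPM (median 73.3) in the highest-score and 16.8 to 52.9 CPM (median 34.5) in the lowest-score embryos.

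Zp3, also a zona pellucida gene, had the smallest difference between the sets of the 5 genes. It lies on chromosome 5 (135980099 to 135988624, plus strand) and had 35.0 to 189 CPM (median 56.3) in the highest-score embryos and 6.32 to 182 CPM (median 50.3) in the lowest-score embryos. Of the 8 embryos with the most Zp3, 3 were in the highest set and 3 in the lowest, against 7 and 0 for Zp1. Bmp15 gave 2 and 2, so a loose tie to the score was not particular to Zp3. Set means of log2(CPM + 1) differed by 0.62 for Zp3 and by 0.82 for Bmp15. K49A replicate 23, with the highest Zp3 of all, 189 CPM, would be among the 8 lowest if Zp3 were left out of the score. K49A replicate 4, with the lowest Zp3, 6.32 CPM, would be among the 8 highest. Without Bmp15 or without Zp2, 8 of the 8 highest and 7 of the 8 lowest embryos were the same.

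**Figure D1:**
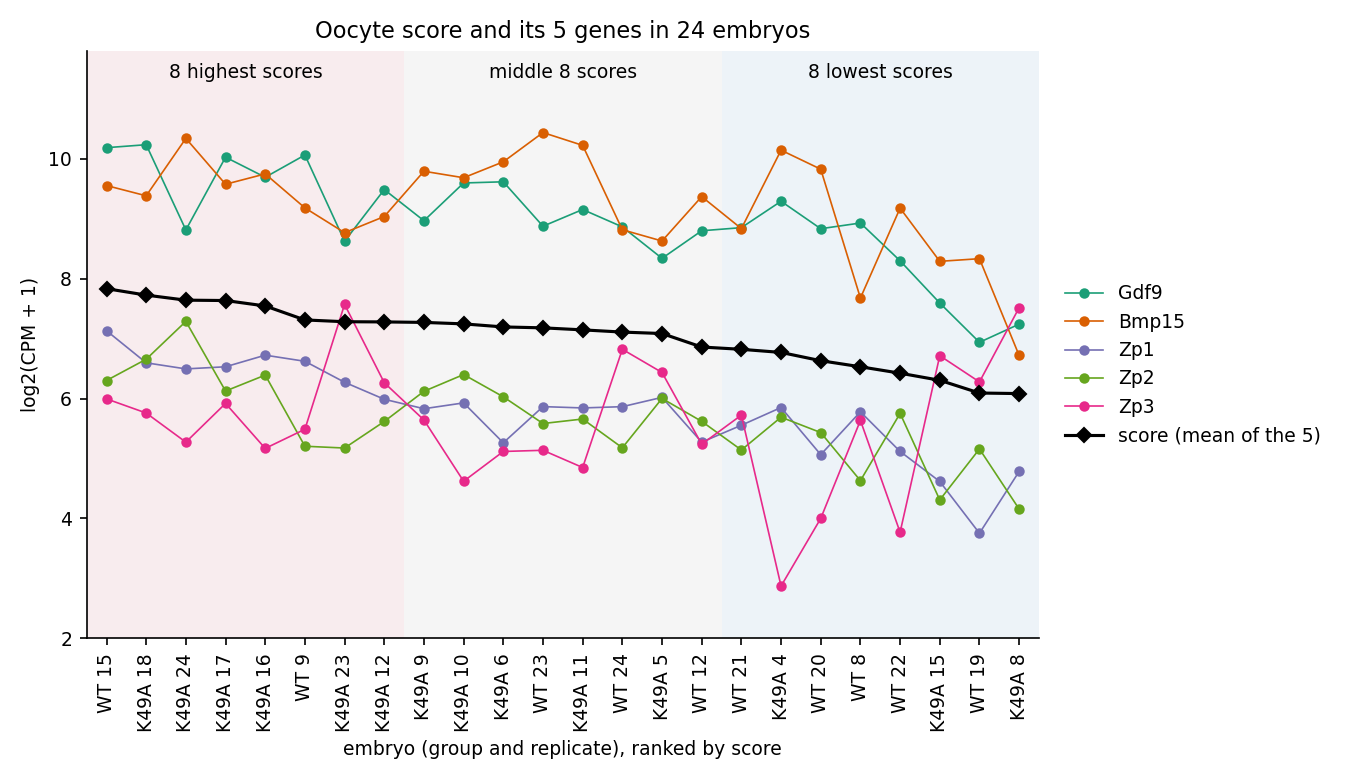
Score (black) and log2(CPM + 1) of its 5 genes (y axis) in the 24 embryos, ranked from the highest score at the left to the lowest at the right and shaded by set. Zp1 and Gdf9 decline along the ranking, while Zp3 is highest in K49A 23 (189 CPM) of the highest set and K49A 8 (182 CPM) of the lowest set.

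The sets differed in the depth of their libraries, in genes detected, in their TMM factor and in their place on the plate. Highest-score embryos had 3107009 to 4825245 counts (mean 4171361 ± 509548, SD, n = 8) and lowest-score embryos 1544253 to 4585539 (2855902 ± 1125415, n = 8), which differ in a 2-sided exact permutation test (p = 0.0115, adjusted over 7 measures p = 0.0161). This difference in depth did not pass with 5 embryos a set (1564000 counts, exact permutation p = 0.0556) or with 12 a set (602200 counts, permutation test p = 0.148). Genes above 0 did not overlap: 17254 to 20017 in the highest-score and 14727 to 17142 in the lowest-score embryos (exact permutation p = 0.0001554, the smallest this design can give, adjusted p = 0.000544). At an equal depth of 1544253 counts the expected numbers of genes still did not overlap, with 15891 to 18125 in the highest-score and 14498 to 15864 in the lowest-score embryos. Wells lay in plate columns 3 to 6 (mean 4.75) for the highest-score and 1 to 4 (mean 2.63) for the lowest-score embryos (exact permutation p = 0.00746, adjusted p = 0.0131). The TMM factor, by which edgeR scales library totals, also differed (exact permutation p = 0.00466, adjusted p = 0.0109). It was 0.950 to 1.27 (mean 1.10) in highest-score and 0.730 to 1.11 (mean 0.875) in lowest-score embryos. The score uses library totals without this factor. Made from TMM-scaled CPM, it overlapped between these sets, at 7.02 to 7.72 against 6.28 to 7.17. Counts from mitochondrial DNA made up 3.31 to 11.99% (mean 5.89%) in the highest-score and 4.91 to 14.1% (mean 7.56%) in the lowest-score embryos, a difference within the spread (exact permutation p = 0.280), although it gave p = 0.0438 without K49A replicate 24. The part of depth and plate column in the results below was not tested beyond the fits that carry them as covariates.

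**Figure D2:**
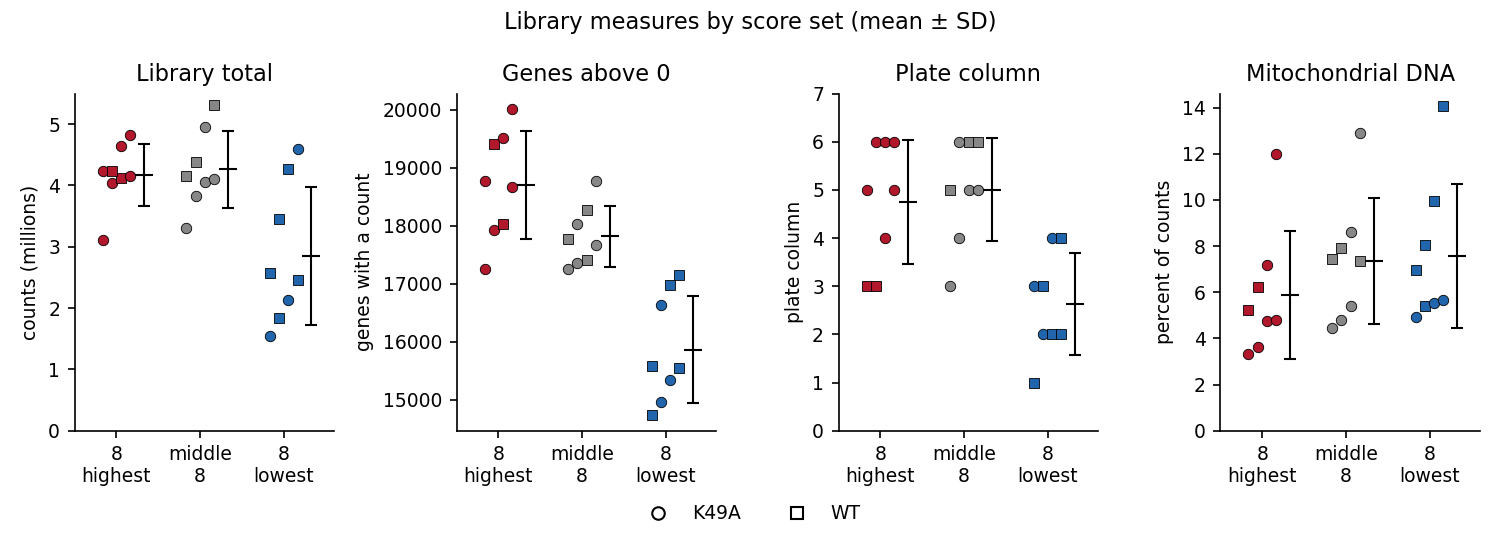
Library total, genes above 0, plate column and share of counts from mitochondrial DNA (y axes) for each embryo of the 8 highest, middle 8 and 8 lowest scores, with circles for K49A, squares for WT, and mean ± SD beside the points. Genes above 0 lie between 17254 and 20017 in the highest set and between 14727 and 17142 in the lowest set, and 5 of the 8 highest-score embryos sat in columns beyond the last one that held a lowest-score embryo.

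Across all other genes, 0 of 12183 passed the test as higher in highest-score embryos and 0 as lower (edgeR's quasi-likelihood test with WT/K49A as covariate, Benjamini-Hochberg adjusted p under 0.05, 0% called in each direction). The smallest adjusted p was 0.0556. At an unadjusted p under 0.05 there were 554 genes with higher values in highest-score embryos (4.55%) and 1321 with lower values (10.8%), where 609 in all would be expected by chance alone. The median log2 fold change of all genes was -0.009. DESeq2, run on the same embryos, called 340 genes higher and 455 lower, and a fit of the score as a continuous variable over all 24 embryos called 290 higher (1.83% of 15821) and 1059 lower (6.69%), with 9.53% higher and 13.2% lower at an unadjusted p under 0.05. With the log2 library total as a further covariate, the contrast of sets called 0 in either direction, with 511 genes at an unadjusted p under 0.05, and the continuous fit also called 0, with 1497 (5.43% higher and 3.55% lower).

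One embryo weighed heavily on this count. It was K49A replicate 4, a member of the lowest set with a score of 6.77 and 6.32 CPM of Zp3. Without K49A replicate 4, 103 genes were called higher (0.818%) and 412 lower (3.27%), with 8.61% and 12.2% at an unadjusted p under 0.05. Without WT replicate 8 the calls were 0 higher and 5 lower, and without WT replicate 22 they were 1 higher and 0 lower. Leaving out any other single embryo gave 0 calls. The genes with lower values at an unadjusted p under 0.05 numbered 858 without K49A replicate 15 and 871 without K49A replicate 8, and those with higher values 1084 without K49A replicate 4.

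The middle 8 embryos were not used in the contrast, and their place between the sets is given as a description. A wider gap between the sets is more likely to hold another mean, whatever a gene's relation to the score. Genes chosen for a small p tend to have wider gaps than all genes tested. The percentages below therefore cannot show that the middle embryos follow the score. Their mean log2(CPM + 1) was between the means of the 2 sets for 484 of the 554 genes with higher values (87.4%) and for 696 of the 1321 with lower values (52.7%), against 41.0% of all genes tested. The values of the 2 sets did not overlap at all for 17 genes in the higher direction (0.14% of 12183) and 8 in the lower (0.0657%).

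With the sets as chosen and fold changes after TMM scaling, other mRNAs that the oocyte stores did not follow the score. Their direction depended on how the score was made. The score itself is on library totals, and list medians on that scale are given with the scaling below. The sets are therefore called by their score here and not by retained oocyte mRNA. The subcortical maternal complex is a protein assembly under the egg's surface that cleavage needs, and the oocyte Nlrp, Omt2 and Oosp genes are transcribed with it in the oocyte. Of 21 tested members of that list, 6 had positive and 15 negative fold changes (49.5% and 50.5% of all genes), with 1 higher and 6 lower at an unadjusted p under 0.05 (4.55% and 10.8% of all genes), with a median log2 fold change of -0.40. Omt2b had 2676 to 7602 CPM (median 4560) in highest-score embryos and 4294 to 37340 CPM (median 9425) in lowest-score embryos, a log2 fold change of -1.99 ± 0.49 (SE, adjusted p = 0.119, edgeR). Omt2a, a near copy with which it can share reads, gave -1.80 ± 0.48 (adjusted p = 0.119), and Oosp1, an oocyte-secreted protein gene, -1.38 ± 0.48 (adjusted p = 0.170). The sets overlapped for all 3. Their longest coding transcripts have 735, 1167 and 972 bases, within the shortest length bin described below (204 to 1266 bases, median log2 fold change -1.12). With library total as covariate Omt2b gave -0.67, Omt2a -0.49 and Oosp1 -0.25, and the median of the list was -0.25. The part of transcript length and depth in these values was not tested further. The median of the list was 0.14 when the score was made from TMM-scaled CPM and 0.18 when Zp3 was left out of it. At an unadjusted p under 0.05, 5 were higher and 2 lower in the first case (12.8% and 16.2% of all genes). In the second, 4 were higher and 3 lower (11.7% and 14.3%).

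The Oogenesin, Pramel and Tcl1 genes, clustered families transcribed in oocytes and early embryos, had 22 tested members with a median of -0.55, of which 0 were higher and 7 lower at an unadjusted p under 0.05 (4.55% and 10.8% of all genes). Dppa3, also called Stella, which protects the maternal genome from demethylation, had 338 to 2093 CPM (median 907) in highest-score and 599 to 9426 CPM (median 3255) in lowest-score embryos (log2 fold change -1.96 ± 0.54, adjusted p = 0.121). Tcl1b1 had 1780 to 7313 CPM (median 2933) in highest-score and 4404 to 19840 CPM (median 8404) in lowest-score embryos (-1.44 ± 0.42, adjusted p = 0.127). Dppa3 and Tcl1b1, with 833 and 1040 bases, also fall in the shortest length bin, and gave -0.965 and -0.960 with library total as covariate. The median of this list was 0.05 without K49A replicate 4, -0.65 with library total as covariate, -0.10 with the TMM-scaled score and 0.11 without Zp3 in the score. For the TMM-scaled score, 5 were higher and 1 lower at an unadjusted p under 0.05 (12.8% and 16.2% of all genes). Without Zp3, 4 were higher and 1 lower (11.7% and 14.3%). In each of these 2 fits, 2 were called higher and 0 lower (5.32% and 7.39%, then 3.66% and 5.53%, of all genes). Reads of the Tcl1b copies can be split among them, so values of single members are uncertain.

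The 12 tested oocyte transcription factors had a median of 0.17, with 1 higher and 1 lower at an unadjusted p under 0.05 (4.55% and 10.8% of all genes). Nobox, a homeobox factor that drives oocyte genes including Gdf9 and Bmp15, had 14.96 to 232 CPM (median 66.6) in highest-score and 16.2 to 125 CPM (median 24.5) in lowest-score embryos (log2 fold change 1.20 ± 0.55, adjusted p = 0.304). Foxo3, which holds oocytes in reserve, had -0.83 ± 0.34 (adjusted p = 0.241). The median of the list was 0.78 without K49A replicate 4 and -0.24 with library total as covariate, so its direction depended on the fit. With the TMM-scaled score it was 1.23, with 8 of 13 tested members higher at an unadjusted p under 0.05 and 5 called higher (12.8% and 5.32% of all genes). Without Zp3 in the score it was 1.25, with 8 of 12 higher and 3 called (11.7% and 3.66% of all genes).

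Genes that store, translate or degrade maternal mRNA were split in direction with the sets as chosen. Unless given as calls, counts of all lists in this paragraph are at an unadjusted p under 0.05, where all genes gave 4.55% higher and 10.8% lower. Storage and translation control (27 tested) had a median of -0.02, with 2 higher and 4 lower at an unadjusted p under 0.05. In this group Pabpc1l, the poly(A)-binding protein of oocytes and early embryos, had 21.7 to 78.4 CPM (median 33.3) in highest-score and 6.93 to 25.2 CPM (median 11.7) in lowest-score embryos (1.46 ± 0.43, adjusted p = 0.127). Cpeb4, a protein of the family that binds TTTTAT-type elements, gave -0.92 ± 0.39 (adjusted p = 0.252). The decay list, made up of deadenylase and decapping genes and their adaptors, had 33 tested members and a median of -0.03, with 1 higher and 4 lower. Its decapping enzyme Dcp2 had 45.5 to 114 CPM (median 82.0) in highest-score and 96.6 to 253 CPM (median 175) in lowest-score embryos (-1.14 ± 0.35, adjusted p = 0.137). Meiosis and M-phase control (32 tested) had a median of 0.06, with 1 higher and 3 lower, led by the securin gene Pttg1 at -1.79 ± 0.48 (adjusted p = 0.119). Maternal chromatin factors (41 tested) had a median of -0.22, with 0 higher and 5 lower, among them the histone demethylase gene Kdm5b at -1.42 ± 0.43 (adjusted p = 0.136). With the TMM-scaled score, 4 of 27 storage and 4 of 33 decay genes were called higher, and 1 of each lower. Of all genes 5.32% and 7.39% were. Without Zp3 in the score, 4 of 27 and 4 of 34 were called higher and 0 lower (3.66% and 5.53% of all genes). Under these 2 scores the meiosis list had 3 and 2, then 1 and 1, called higher and lower. The chromatin list had 1 and 1, then 0 and 1.

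Genes of embryonic genome activation had fold changes of both signs. Of 62 tested genes switched on at the 2-cell stage, 33 had positive and 29 negative fold changes (49.5% and 50.5% of all genes), with a median of 0.20. At an unadjusted p under 0.05, 2 were higher and 5 lower (4.55% and 10.8% of all genes). The mean log2(CPM + 1) of these genes was 4.45 to 6.18 (median 5.42) in highest-score and 2.298 to 6.11 (median 5.37) in lowest-score embryos. Tcstv3, a 2-cell marker, had 15.1 to 195 CPM (median 49.7) in highest-score and 13.1 to 623 CPM (median 105) in lowest-score embryos (-1.51 ± 0.61, adjusted p = 0.234). The median of this list was -0.16 without K49A replicate 4, -0.29 with library total as covariate and -0.72 with a score from TMM-scaled CPM, where 6 of 61 were called lower (7.39% of all genes) and 0 higher. Replication genes (47 tested) had a median of 0.05 with 2 higher and 7 lower, and later preimplantation markers (31 tested) a median of 0.34 with 1 higher and 0 lower. These counts too are at an unadjusted p under 0.05, against 4.55% and 10.8% of all genes.

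Ribosomal protein genes and nuclear genes of oxidative phosphorylation had the lowest medians of the lists with at least 5 tested members. Of 85 tested ribosomal protein genes, 4 had positive and 81 negative fold changes, and 0 were higher and 72 lower at an unadjusted p under 0.05 (10.8% of all genes), with a median of -1.95 and 0 called. Rpl37a, a large-subunit protein gene, had 14.4 to 70.0 CPM (median 30.2) in highest-score and 26.5 to 627 CPM (median 72.6) in lowest-score embryos (-2.53 ± 0.55, adjusted p = 0.114). The lowest-score embryos were far from uniform: ribosomal protein genes took 0.198 to 5.43% of their counts (median 1.27%), against 0.553 to 1.82% (median 0.779%) in highest-score embryos (exact permutation p = 0.137). Reads of these genes can be shared with pseudogene copies.

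The ribosomal result moved with depth and with single embryos. The median was -0.10 with library total as covariate, -1.38 with plate column, -1.18 in the continuous fit with library total, and 0.27 among embryos with at least 3000000 counts. The last of these fits kept the whole highest set but only K49A replicate 4, WT replicate 8 and WT replicate 22 of the lowest set. The median was -1.41 without K49A replicate 8, with 50 lower at an unadjusted p under 0.05, where 871 of all 12543 genes were. It was -2.14 without K49A replicate 4, with 60 of the genes then called lower, where 3.27% of all genes were. In the continuous fit without depth 76 of 87 were called lower, where 6.69% of all genes were. With a score from TMM-scaled CPM, 75 of 85 were called lower and 0 higher (7.39% and 5.32% of all genes, with 16.2% and 12.8% at an unadjusted p under 0.05). With Zp3 left out of the score 76 of 85 were called lower and 0 higher (5.53% and 3.66% of all genes, with 14.3% and 11.7% unadjusted).

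Mitochondrial genes of both genomes gave similar signs. Of 74 tested nuclear genes of oxidative phosphorylation, 0 were higher and 40 lower at an unadjusted p under 0.05 (4.55% and 10.8% of all genes), with a median of -1.39. Cox5b, a subunit of cytochrome c oxidase, had 24.9 to 78.9 CPM (median 43.4) in highest-score and 50.8 to 559 CPM (median 137) in lowest-score embryos (-2.17 ± 0.50, adjusted p = 0.114). The 15 tested transcripts of mitochondrial DNA all had negative fold changes, with a median of -0.97 and 8 lower. Of these mt-Co3, another oxidase subunit, had 267 to 1287 CPM (median 565) in highest-score and 921 to 4605 CPM (median 1968) in lowest-score embryos (-1.85 ± 0.48, adjusted p = 0.119). With library total as covariate the medians were -0.11 for the nuclear and -0.25 for the mitochondrial list. Among libraries of at least 3000000 counts they were 0.18 and -0.41, with 0 lower in either list, where 234 of all 14818 genes were. Of the lowest set that fit kept only K49A replicate 4, WT replicate 8 and WT replicate 22. Without K49A replicate 8 the nuclear list had 26 lower, where 871 of all 12543 genes were, and a median of -0.90.

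Counts in other housekeeping lists are again at an unadjusted p under 0.05, where all genes gave 4.55% higher and 10.8% lower. Splicing factors (67 tested) had a median of -0.43 with 0 higher and 17 lower, among them the snRNP core protein genes Snrpe (-2.27 ± 0.56, adjusted p = 0.118) and Snrpd1 (-2.17 ± 0.54, adjusted p = 0.119). Translation factors (47 tested) had a median of -0.21 with 1 higher and 11 lower. Eef1a1, the main elongation factor, was the 1 higher, with 345 to 780 CPM (median 424) in highest-score and 54.7 to 790 CPM (median 194) in lowest-score embryos (1.65 ± 0.56, adjusted p = 0.167). Proteasome subunits (36 tested) had a median of -0.16 with 2 higher and 6 lower, and ribosome biogenesis genes (83 tested) -0.08 with 2 higher and 13 lower. Heat shock and stress genes (41 tested) had a median of 0.35 with 5 higher and 4 lower. Of these Xbp1, a factor of the unfolded protein response, had 2.87 to 20.6 CPM (median 11.2) in highest-score and 0 to 4.46 CPM (median 1.35) in lowest-score embryos (2.53 ± 0.69, adjusted p = 0.119), and the chaperone gene Hsp90ab1 gave -1.5001 ± 0.43 (adjusted p = 0.127). The p53 response genes (26 tested) had a median of 0.03 with 2 higher and 1 lower, led by Ccng1 at 2.36 ± 0.78 (adjusted p = 0.155), whose sets did not overlap. Several of these lists had lower medians with the TMM-scaled score, where 7.39% of all genes were called lower. Ribosome biogenesis genes then had a median of -1.15 with 25 of 83 called lower, splicing factors -0.84 with 22 of 67 and translation factors -0.80 with 11 of 47. Without Zp3 in the score, where 5.53% of all genes were called lower, the 3 medians were -1.01, -0.77 and -0.91, with 13 of 83, 16 of 68 and 9 of 47 called lower.

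**Figure D3:**
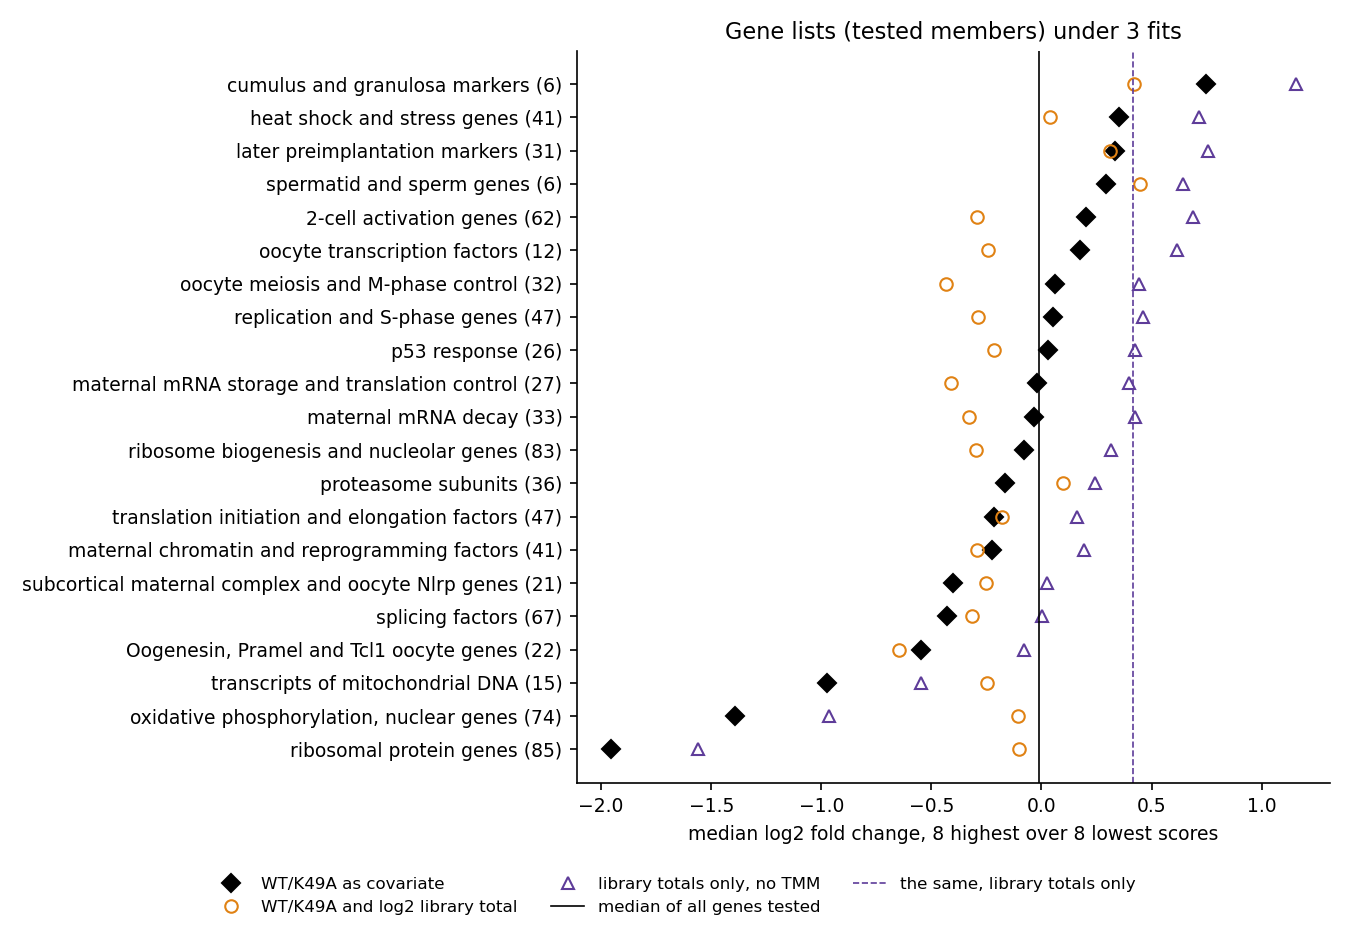
Median log2 fold change (x axis, 8 highest over 8 lowest scores) of each gene list with at least 5 tested members (y axis, number in brackets), from the fit with WT/K49A as covariate (black), with log2 library total added (orange) and with library totals in place of TMM scaling (purple); lines mark the medians of all genes. Ribosomal protein genes lie at -1.95 in the first fit and -0.10 in the second, and library totals alone move the median of all genes to 0.41.

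Scaling set the balance of directions. With library totals in place of TMM scaling, the median log2 fold change of all genes was 0.41, and at an unadjusted p under 0.05 there were 1215 genes with higher (9.97%) and 592 with lower values (4.86%) in highest-score embryos, against 554 and 1321. With that scaling ribosomal protein genes had a median of -1.56 and the subcortical maternal complex list 0.02. The Oogenesin, Pramel and Tcl1 list had -0.08, oocyte transcription factors 0.61, storage and translation control 0.40 and decay 0.42. These are to be read against the 0.41 of all genes. Calls were 0 in both directions with this scaling, with upper quartile scaling and with DESeq2's size factors in edgeR.

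Fold changes differed with transcript length. Of 10 bins by length, the one with the shortest coding transcripts, 204 to 1266 bases, had a median log2 fold change of -1.12, and 43.1% of its 1108 genes had lower values in highest-score embryos at an unadjusted p under 0.05. Without ribosomal protein and oxidative phosphorylation genes that bin had a median of -1.05. Genes of 1733 to 2121 bases, the range of Gdf9 (1793) and Zp1 (1963), had a median of 0.46, and the longest bin -0.18. Zp3, the score gene with the smallest difference between the sets, has the shortest transcript of the 5, 1323 bases. Bmp15, with the next smallest difference, has the longest, 3060 bases. With library total as covariate the shortest bin had a median of 0.08.

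**Figure D4:**
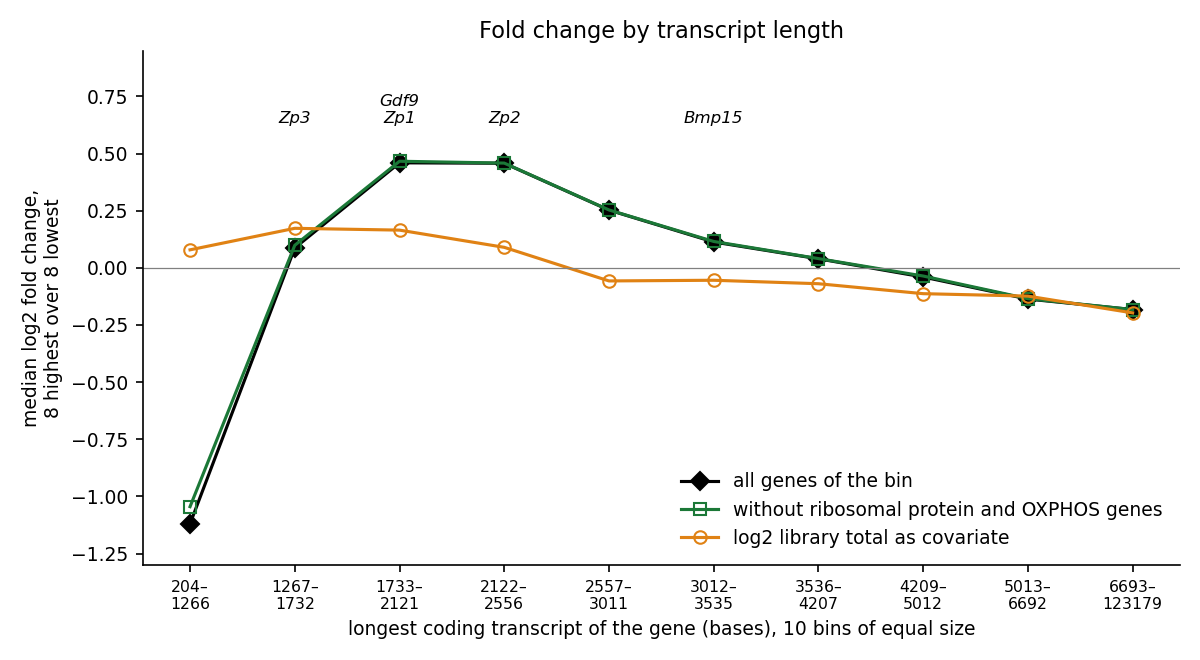
Median log2 fold change (y axis, 8 highest over 8 lowest scores) in 10 bins of tested genes by the length of their longest coding transcript in bases (x axis), for all genes of a bin, without ribosomal protein and oxidative phosphorylation (OXPHOS) genes, and with log2 library total as covariate; the bins that would hold the score genes are marked. The shortest bin lies at -1.12 for all genes and at 0.08 with library total as covariate.

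The 6 genes with the smallest p in each direction and a mean of at least 10 CPM are described with no call. In the higher direction, Tent5b, a noncanonical poly(A) polymerase gene, had 141 to 1292 CPM (median 458) in highest-score and 33.9 to 228 CPM (median 89.9) in lowest-score embryos. Its log2 fold change was 2.54 ± 0.50 (adjusted p = 0.102). Cdkn1c, an imprinted gene for the cell cycle inhibitor p57, had 16.6 to 203 CPM (median 42.5) in highest-score and 0 to 12.9 CPM (median 6.24) in lowest-score embryos (3.09 ± 0.71, adjusted p = 0.114). Slc35f6, a solute carrier family gene, had 12.8 to 56.9 CPM (median 21.6) in highest-score and 0 to 10.3 CPM (median 3.68) in lowest-score embryos (2.91 ± 0.67, adjusted p = 0.114). For Cdkn1c and Slc35f6 all 8 highest-score embryos were above all 8 lowest-score embryos. Mbnl3, a splicing regulator gene, Lamp1, a lysosomal membrane protein gene, and Reep2, which encodes a protein that shapes the endoplasmic reticulum, had 7 of the 8 above, with log2 fold changes of 3.15 ± 0.73, 1.79 ± 0.41 and 1.80 ± 0.39 (adjusted p = 0.114 for each).

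In the lower direction, Khdc1c, a member of the KHDC1 family of RNA-binding domain proteins, had 19.7 to 37.6 CPM (median 25.6) in highest-score and 69.3 to 153 CPM (median 91.8) in lowest-score embryos, with no overlap. The difference was -1.77 ± 0.30 on the log2 scale (SE, adjusted p = 0.0556, edgeR) and -1.66 with library total as covariate (adjusted p = 0.694, edgeR). Magoh, a core protein gene of the exon junction complex, had 28.3 to 94.1 CPM (median 63.2) in highest-score and 92.7 to 1311 CPM (median 256) in lowest-score embryos (-2.91 ± 0.51, adjusted p = 0.0556). The single-strand DNA-binding subunit gene Rpa3 had 6.95 to 17.6 CPM (median 12.3) in highest-score and 16.7 to 81.9 CPM (median 45.2) in lowest-score embryos (-2.05 ± 0.39, adjusted p = 0.0755). Snrpd3, an snRNP core gene, gave -2.48 ± 0.46 (adjusted p = 0.0755). The replication-dependent histone genes Hist1h2ap (-3.50 ± 0.59, adjusted p = 0.0556) and Hist1h2ao (-3.71 ± 0.77, adjusted p = 0.114) encode near-identical H2A copies, so their counts are uncertain. Libraries primed on poly(A) tails also count only histone mRNA that carries a tail, so these values need not reflect the total of either mRNA. With library total as covariate, Magoh gave -1.38, Rpa3 -1.60, Snrpd3 -1.57, Hist1h2ap -1.72 and Hist1h2ao -2.09 (adjusted p = 0.9994 for each, edgeR). In the higher direction that fit gave 1.93 for Tent5b, 1.39 for Reep2, 1.34 for Lamp1, 3.12 for Cdkn1c, 3.57 for Mbnl3 and 2.39 for Slc35f6 (adjusted p = 0.9994 for each). The middle embryos had means between the sets for 11 of these 12 genes. Rpa3 was the exception, with means of 11.56 CPM in the highest, 11.02 in the middle and 45.75 in the lowest set. These genes were chosen for a small p, so their count cannot show that the middle embryos follow the score.

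**Figure D5:**
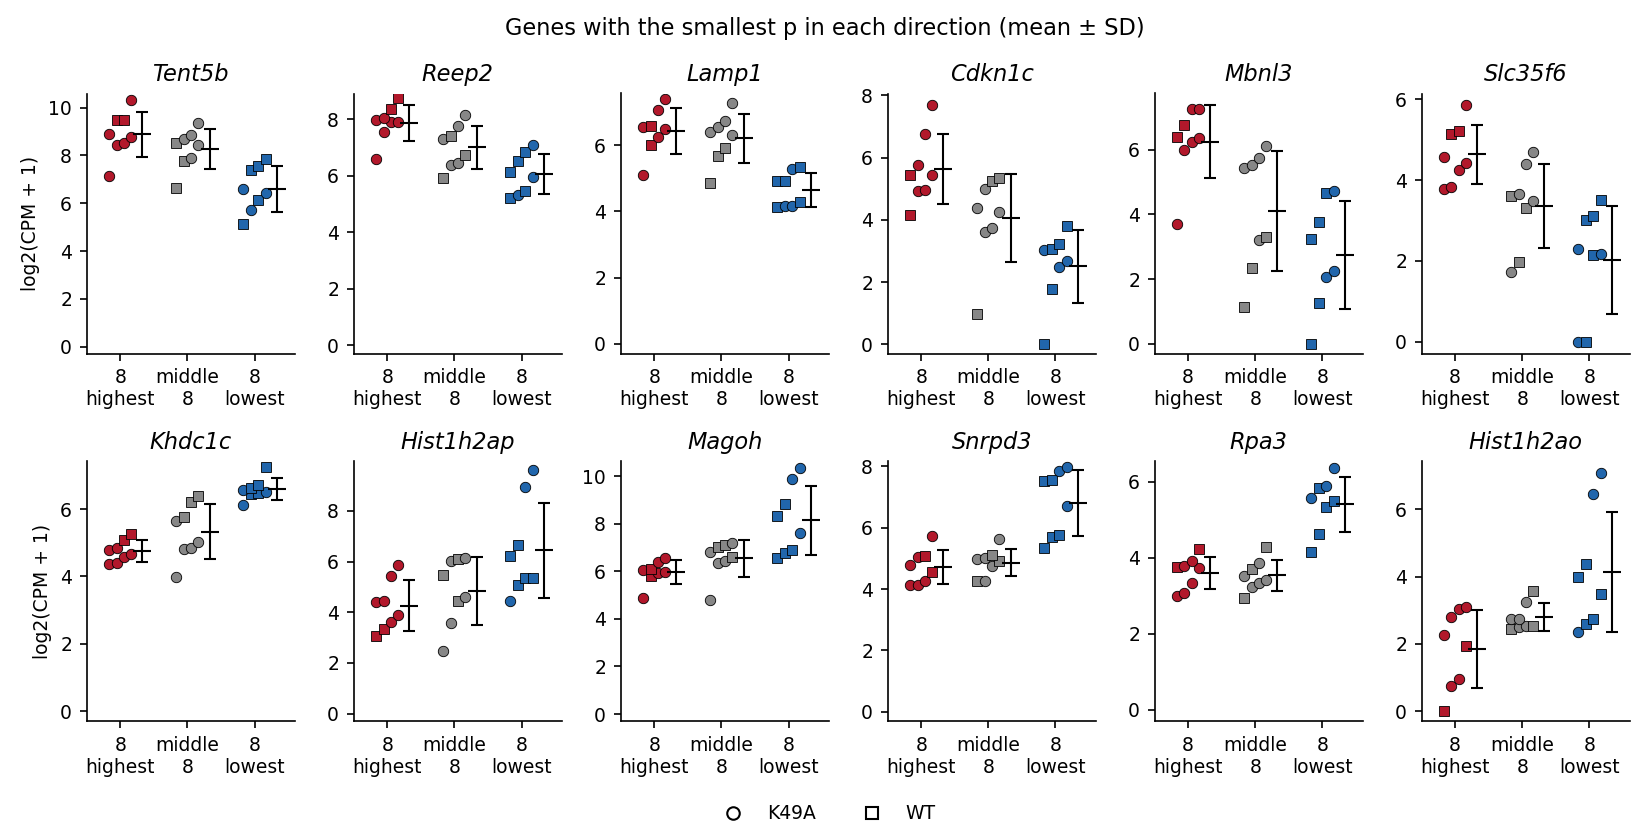
log2(CPM + 1) (y axes) of the 6 genes with the smallest p in the higher direction (top) and the lower direction (bottom) in each embryo of the 8 highest, middle 8 and 8 lowest scores, with circles for K49A, squares for WT, and mean ± SD beside the points. Khdc1c, Cdkn1c and Slc35f6 show no overlap between highest and lowest sets, and none of the 12 passed the adjusted threshold.

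The sets were unequal in label, by a margin that did not pass a test. The highest set held 6 K49A and 2 WT embryos and the lowest 3 K49A and 5 WT (odds ratio 5, Fisher's exact test, 2-sided, p = 0.315). Wells of K49A and WT lay in different plate rows, so label and row cannot be told apart. The score as a continuous variable called 236 genes higher and 921 lower within K49A embryos alone, and 0 and 1 within WT embryos alone. The test of the difference itself, the interaction of set and label in edgeR's quasi-likelihood test, called 0 genes, with a smallest adjusted p of 0.0543. At an unadjusted p under 0.05 it gave 1127 genes, where 609 would be expected by chance alone. With no filter on low counts it called 168. It used the embryos of the 2 sets and not the continuous score, so it does not test the counts within labels. The labels are not shown to differ in this, and a difference is not excluded.

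Markers of other cells were summed in each embryo. The 20 cumulus and granulosa markers summed to 43.9 to 441 CPM (median 167) in highest-score and 29.4 to 430 CPM (median 90.5) in lowest-score embryos, with 0 of the 20 at 0 in all 24 embryos. The 10 blood markers summed to 30.4 to 218 CPM (median 106) in highest-score and 5.45 to 297 CPM (median 22.7) in lowest-score embryos, and Hbb-bs, Hbb-bt and Tyrobp were at 0 throughout. The 22 sperm genes summed to 106 to 182 CPM (median 134) in highest-score and 60.0 to 115 CPM (median 94.2) in lowest-score embryos, with Prm3, Akap4, Gapdhs, Smcp and Plcz1 at 0 throughout. Of the tested members of these lists (6, 4 and 6), 0 had an unadjusted p under 0.05 in the contrast of sets. With library total as covariate 2 of 4 blood markers (median log2 fold change 2.71) and 2 of 6 sperm genes were higher at that p, and in the continuous fit 1 of 10, 1 of 5 and 3 of 9 were, with 0 called in both fits. Of all genes, 262 of 12183 were higher at that p in the first of these fits and 9.53% in the second. In the continuous fit 1 sperm gene was lower. Prm1, the gene of the substitution, had at most 2 counts in highest-score and 1 in lowest-score embryos. Prm2 had a median of 6.5 counts in highest-score and 8 in lowest-score embryos, so neither transcript checks the labels.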

How the data were processed

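Per the submitters' processing notes, reads went through RSEM 1.3.3 with STAR 2.7.8a, with cutadapt 2.3 and FastQC 0.11.8 also named, on build GRCm38 (mm10). No source used here gives the annotation release or says whether counting used strand. The authors deposited expected counts per gene and embryo, which were whole numbers and were rounded with 0 values changed. TPM values, as deposited by the authors, served only for an alternative score. Plate positions of the wells, also deposited by the authors, gave row and column. The 5 transgene entries held 0 counts and were left out, which leaves 55421 genes. The members of the comparison and the gene lists were chosen with earlier results of these data known.

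Counts were fitted in edgeR 4.0.16 under R 4.3.3 (robust quasi-likelihood test; DESeq2 1.42.0 as an alternative) after filterByExpr by set and TMM scaling, with WT/K49A as covariate and Benjamini-Hochberg adjustment at 0.05; the 5 score genes were left out of the test. A standard error is the log2 fold change over the root of F. CPM are after TMM scaling over the 24 libraries, except those of the score genes and the summed markers, which are per library total. Exact permutation tests are 2-sided (scipy 1.17.1). The genes named are the 5 score genes, the 6 smallest p in each direction with a mean of at least 10 CPM and a standard symbol, and up to 4 members of each of 23 lists, of which those with an unadjusted p under 0.05 were kept. Not every gene so chosen is reported here. Positions, lengths and sequences come from GENCODE M21 (GRCm38), which held 12160 of the 12183 tested genes and a coding length for 90.7% of them. On simulated data with these depths and spread the fit was tested as well: among 11371 genes with 50 changed at each size, calls found 0 of those changed 2-fold and 20 of those changed 4-fold. It found 38 of the 8-fold and 44 of the 16-fold changes. The closest libraries, K49A replicates 17 and 18 (Spearman 0.913), had a chi-square of 21.5 times the degrees of freedom, and all libraries were kept as separate samples. Alternatives covered scaling, filter, tool, size of the sets, the score, covariates, a block for replicate number, and single embryos left out; those added after seeing the data were thinned counts, plate columns 3 and 4 alone, libraries of at least 3000000 counts, mitochondrial share as covariate, a TMM-scaled score, the continuous score with library total, and 5 or 12 embryos a set for the library measures.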

Additional observations from a re-analysis of the deposited data

Results flagged for a closer look

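Of 60 sets of 8 values tested for a single distant embryo by Dixon's criterion (gap over range above 0.526), 7 held one, where chance gives about 1 in 20. All 7 concern 2 highest-score embryos, K49A replicates 23 and 24, whose titles, like that of K49A replicate 22, carry the word dot, which the labels do not explain. K49A replicate 24 had the smallest library of its set, 3107009 counts, and the largest share of counts from mitochondrial DNA, 11.99%. It also had the lowest Mbnl3, 3.699 on the log2(CPM + 1) scale, and the lowest Magoh, 4.871. K49A replicate 23 had the highest Zp3, 7.57 on the log2(CPM + 1) scale of library totals. Its ribosomal protein genes took 1.824% of counts and averaged 6.924 in log2(CPM + 1), both the highest of the set. Without K49A replicate 23 the contrast called 0 genes, and without K49A replicate 24, 0.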

How the results depend on the processing

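Counts of called genes depended on the score and the tool. Calls, higher and lower in highest-score embryos, were 174 and 353 with no filter on low counts, 237 and 507 with 5 embryos a set, 19 and 45 with 12 a set, 290 and 1059 with the score as a continuous variable, and 340 and 455 with DESeq2. With all 24 embryos in 1 fit of 3 sets they were 10 and 62. A score from TMM-scaled CPM, added after seeing the data, gave 659 and 915, one from TPM 2 and 4, one without Zp1 35 and 392, and one without Zp3 448 and 678. The continuous score gave 236 and 921 in K49A embryos alone and 0 and 1 in WT embryos alone, and leaving out the WT/K49A term gave 1 lower gene. Leaving out 1 embryo gave 0 to 103 higher and 0 to 412 lower genes. The interaction with label called 168 genes with no filter. The difference in library total was 1564000 with 5 a set (exact permutation p = 0.0556) and 602200 with 12 a set (p = 0.148, permutation test). Calls were 0 in both directions under the other scalings, the filter of 10 counts in 8 libraries, the covariates library total, genes above 0, plate column and mitochondrial share, scores without Gdf9, Bmp15 or Zp2, thinned counts, columns 3 and 4 alone, libraries of at least 3000000 counts, and the continuous score with library total. Some of these fits had few embryos. Libraries of at least 3000000 counts held only K49A replicate 4, WT replicate 8 and WT replicate 22 of the lowest set. Columns 3 and 4 held WT replicates 9 and 15 and K49A replicate 16 of the highest set. Of the lowest set they held K49A replicates 4 and 15 and WT replicates 21 and 22. The cause of the differences between settings was not tested.

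The fit with the replicate number as a block called 0 genes in either direction, with 664 at an unadjusted p under 0.05. The 6 numbers shared by K49A and WT embryos had correlations of -0.231 to 0.153, 1 of them over 0.1, and 1 of 12 embryos correlated best with its own number, so the numbers are not taken to pair embryos.

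Genes above 0 did not overlap between the sets, so as a covariate this number can hardly be told apart from set. In the fit with that covariate the smallest adjusted p was 0.9996 (edgeR's quasi-likelihood test). Standard errors there were 0.93 for Omt2b and 1.09 for Snrpe, so a sign in that fit is uncertain. Log2 fold changes of single genes had the opposite sign in 57 pairs of gene and setting. With genes above 0 as covariate they were 0.23 for Omt2b, 0.41 for Omt2a, 0.30 for Oosp1, 1.012 for Oosp3, 0.40 for Dppa3, 0.69 for Caprin2, 0.46 for Pabpn1l, -1.02 for Pnrc2, 1.08 for Lsm1, 0.23 for Pttg1, 0.32 for Cks2, 0.47 for B020031M17Rik, 0.11 for Ddit4l, 0.15 for Tcstv3, 0.13 for Nhp2, 1.03 for Imp3, 0.67 for Nop10, 0.024 for Snrpe, 0.60 for Snrpd1, 0.90 for Eif1ax, 0.35 for Hsp90aa1, 1.02 for Hspb1, 0.28 for Gmnn, 0.43 for Dut, -0.024 for Klf5, 0.15 for Cox5b, 0.46 for Cox8a, 0.11 for mt-Rnr2, 0.17 for mt-Co3, 0.51 for mt-Rnr1, 0.81 for mt-Co2, 0.46 for Psma2 and 0.47 for Psmb6. Among libraries of at least 3000000 counts they were 0.091 for Oosp3, 0.44 for Caprin2, 0.59 for B020031M17Rik, 0.13 for Tcstv3, 0.029 for Imp3, 0.31 for Nop10, 0.46 for Eif1ax, 0.024 for Hspb1 and 0.12 for Psma2. In plate columns 3 and 4 alone they were 0.28 for Oosp3, 0.16 for Lsm1, 0.0004 for Cks2 and 0.50 for Psmb6. With library total as covariate they were 0.23 for B020031M17Rik, 0.31 for Eif1ax and 0.36 for Hspb1. Without Zp3 in the score they were -1.14 for Aurkb, -0.15 for Ccng1 and 0.090 for Rrm2b. Single cases were Oosp3 at 0.067 with plate column and 0.16 in the continuous fit with library total, Aurkb at -0.31 with the TMM-scaled score, Bub1b at 0.62 with the replicate block, and Ddit4l at 0.0886 in WT embryos alone.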

Other observations

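The 17 genes in the higher direction and 8 in the lower whose sets did not overlap were listed after their values were seen, with no call by the main test. In the higher direction they include Txnrd1, the cytosolic thioredoxin reductase gene, with 10.97 to 35.6 CPM in highest-score and 0 to 10.8 CPM in lowest-score embryos, and Pigs, of the enzyme complex that attaches GPI anchors, with 32.2 to 108 and 0 to 26.3 CPM. Ssr1, a subunit gene of the translocon-associated complex of the endoplasmic reticulum, had 52.2 to 102 CPM in highest-score and 6.10 to 36.1 CPM in lowest-score embryos. In the lower direction Tent4a, a noncanonical poly(A) polymerase gene, had 107 to 180 CPM in highest-score and 189 to 336 CPM in lowest-score embryos. Cand1, an exchange factor of cullin ubiquitin ligases, had 25.5 to 60.5 CPM in highest-score and 70.5 to 140 CPM in lowest-score embryos.

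Of 24 libraries that failed the depth rule, 19 with under 100000 counts were not scored. The other 5, with 105627 to 1064553 counts, scored 5.09, 5.78, 5.85, 5.89 and 6.58. The first 4 lie below the ranked embryos and the last within the lowest set.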
